A study of Caenorhabditis elegans with 7 samples.

Results

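The transcriptome described here is that of early Caenorhabditis elegans embryos that carry flp-21(ok889), an allele of the neuropeptide gene flp-21. It was chosen by genotype, and it comprises 4 of the 7 RNA sequencing libraries of the series, labelled 11, 22, 29 and 30. The other 3 libraries are wildtype and were not compared here. Per the labels, the libraries were made from embryos before gastrulation, taken from mothers that held 1 to 2 eggs, frozen, extracted with Trizol and prepared with the Illumina TruSeq RNA kit. No other allele, agent or treatment is named in the labels. Nothing in them tells whether each library is a culture of its own, so the spread between libraries may be technical.

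The embryo of C. elegans starts with RNA and protein made by the mother, and its first divisions and cell fates are run largely from these stores. RNA-binding proteins such as POS-1 and MEX-5 decide where and when maternal messages are translated, and transcription from the embryo's own genes starts while the first lineages are being set apart. Adult intestine makes the vitellogenins, yolk proteins that the oocyte takes up, so their messages belong to the mother. FLP-21 is a FMRFamide-like peptide, and it is a known ligand of the receptor NPR-1.

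The libraries held 34164612, 35547865, 51882235 and 53620276 counts in the order 11, 22, 29 and 30. Levels are given as CPM, the counts scaled to a total of 1e6 per library and adjusted for composition by the TMM method. Before this adjustment a single count stood for 0.0186 to 0.0293 CPM. The mutated gene, flp-21 (chromosome V, 7793365 to 7794021 in build WBcel235), had 2, 1, 5 and 9 counts. Its receptor gene npr-1 had 0, 0, 0 and 5 counts, a count of 0 allowing up to 3, and the receptor gene npr-5 had 15, 45, 60 and 25. The levels of flp-21 and npr-1 lie close to the limit of detection, and the labels do not say which part of flp-21 the allele removes, so the counts do not check the genotype.

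The 4 libraries did not stand at equal distances from each other. Across the 6767 genes with a mean of at least 5 CPM, the Pearson correlation of log2 CPM was 0.997 between libraries 22 and 29. It was 0.921 to 0.931 between library 11 and each of the others, and 0.841 between library 30 and both 22 and 29. Only 12 of these genes differed more than 2-fold between libraries 22 and 29, against 672 to 1168 for pairs with library 11 and 2320 and 2353 for library 30 with libraries 22 and 29. The counts of libraries 22 and 29 still differed by more than sampling noise, with 42.1 as their chi-square divided by its degrees of freedom, and they were counted as 2 libraries. This sets them against counting noise alone and does not tell whether they come from separate embryo samples. A first principal component held 81.6% of the variance and set library 30 (score 55.6) and library 11 (15.99) apart from libraries 22 (-36.3) and 29 (-35.3). Libraries 22 and 29 also held transcripts typical of adult tissues, the 6 vitellogenin genes summing to 0.521, 960, 873 and 5.16 CPM in libraries 11, 22, 29 and 30. All 4 libraries are labelled as early embryos, and the source of these transcripts was not tested. The genes behind these distances are described after the abundant transcripts.

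In all 4 libraries 7923 genes reached 1 CPM, of which 7677 were among the 19641 protein-coding genes of the table (39.1%). A further 1716 genes reached 1 CPM in some libraries but not all, and 26980 of the 46748 genes had no count in any library. Protein-coding genes took 96.5 ± 0.677% of the counts (SD, n = 4) and ribosomal RNA genes 2.80 ± 0.624%. The counts were spread over many genes, since the 10 most abundant genes took 7.30 ± 0.877% and 609 genes were needed to reach 50%.

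The most abundant transcripts came from genes of several functions. Of the 15 nuclear genes with the highest mean CPM, leaving out ribosomal RNA, 4 encode tubulins or actin (tbb-2, tba-2, tba-1 and act-2) and 3 encode mitochondrial energy proteins (ant-1.1, atp-2 and Y82E9BR.3). The first was eef-1A.1 (chromosome III, 6970026 to 6972003), which encodes translation elongation factor 1A. It had 13794, 15580, 13026 and 18869 CPM in libraries 11, 22, 29 and 30, with a mean of 15317 ± 2599 CPM (SD, n = 4). Library 30 was the highest and library 29 the lowest, a difference of 1.45-fold. The beta-tubulin gene tbb-2 followed with 4855, 6442, 5636 and 5697 CPM, the widest distance being between libraries 11 and 22. The small heat shock protein gene sip-1 (chromosome III, 10506106 to 10506801) had 5395, 6016, 4694 and 6495 CPM. An exon of sip-1 overlaps F43D9.8 on the opposite strand, and without strand information the reads of the 2 genes cannot be told apart.

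Other genes among these 15 included ubq-1, which encodes polyubiquitin, at 4932 ± 589 CPM, and cyb-3, which encodes a B-type cyclin, at 3494 ± 405 CPM. The small subunit of ribonucleotide reductase, rnr-2, which supplies DNA precursors, averaged 3338 ± 776 CPM. The adenine nucleotide translocator gene ant-1.1 averaged 5241 ± 1123 CPM, and nasp-2, which encodes a histone chaperone of the NASP family, averaged 3161 ± 399 CPM. The maternal regulator pos-1 had the smallest spread of the 15, with 3031, 3212, 3185 and 3458 CPM. All 4 libraries lay within 1.14-fold of each other for pos-1.

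**Figure D1:**
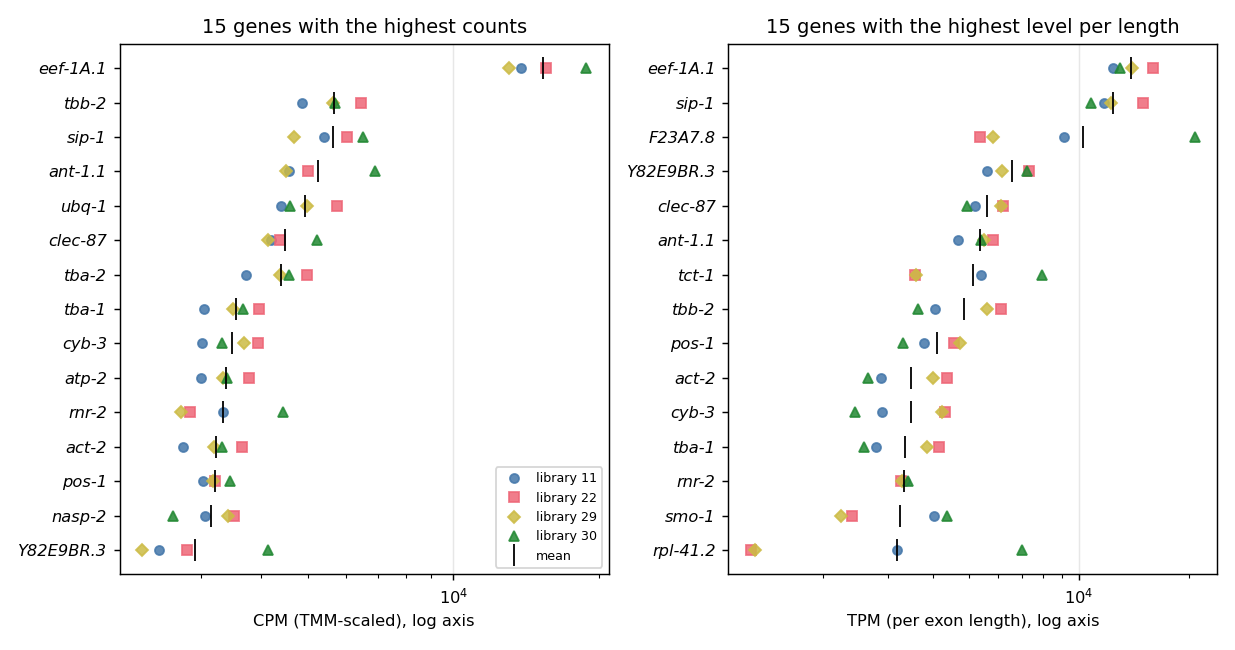
Level of the 15 nuclear genes with the highest mean CPM (left) and the 15 with the highest mean TPM (right), both on log axes, with ribosomal RNA left out. Each coloured point is 1 of the 4 mutant libraries and the black bar is their mean; eef-1A.1 leads both panels, and the short genes F23A7.8 and rpl-41.2 range most widely, with library 30 highest.

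Levels of different genes were compared per length, as TPM, the counts per base of exon scaled to the same total in every library. On this scale eef-1A.1 was again first, at 13868 ± 1575 TPM (SD, n = 4), and sip-1 was close to it at 12449 ± 1774 TPM. Their means differed by less than the SD, although eef-1A.1 was the higher one in each library. The order depended on the length used: with 200 bases taken off every exon length, to allow for the length of a sequenced fragment, eef-1A.1 stood at 11631 TPM, below sip-1 at 13256 TPM. The ATP synthase subunit gene Y82E9BR.3 reached 6576 ± 825 TPM, clec-87, which encodes a C-type lectin domain protein, 5621 ± 632 TPM, and pos-1 4099 ± 679 TPM. The ranges of Y82E9BR.3 and clec-87 overlapped, although Y82E9BR.3 was the higher one in each library. Per length, 4 short genes entered the first 15, namely F23A7.8, tct-1 (the translationally controlled tumour protein), smo-1 (the modifier SUMO) and rpl-41.2 (a ribosomal protein).

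The TPM of the shortest genes rested on little exon sequence and on library 30. F23A7.8 (chromosome X, 16213373 to 16213599) is 227 bases long and had 9127, 5384, 5825 and 20849 TPM in libraries 11, 22, 29 and 30. Library 30 was far above the others. The same step of 200 bases gave F23A7.8 a mean of 60063 TPM in place of 10296, and rpl-41.2 one of 6881 TPM in place of 3180. On that scale pos-1 stood at 3665 TPM, and F23A7.8 was above both eef-1A.1 and sip-1. The order of these genes per length is therefore not fixed by these data.

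The chromosomes differed in how many of their genes were detected. On chromosomes I and III, 55.8% and 57.7% of the protein-coding genes reached 1 CPM in every library, compared with 29.4% on X and 22.9% on V. Chromosome X also held the detected genes of lowest level, with a median of 16.38 ± 4.67 TPM (SD, n = 4) against 46.96 ± 8.59 TPM for the autosomes. In each library the median of X was the lowest of the 6 chromosomes, with 16.45, 19.1, 20.2 and 9.78 TPM in libraries 11, 22, 29 and 30. Detected genes of X were longer, with a median exon length of 1744.5 bases against 1454 bases on the autosomes, and the part of this length difference in the TPM was not tested. X took 4.12 ± 0.489% of all counts, and chromosome III the most, 23.8 ± 0.307%. The spread between libraries was like that of the autosomes, with a median of 0.39 on X and 0.38 on the autosomes, measured as the SD of log2 CPM defined further on.

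**Figure D2:**
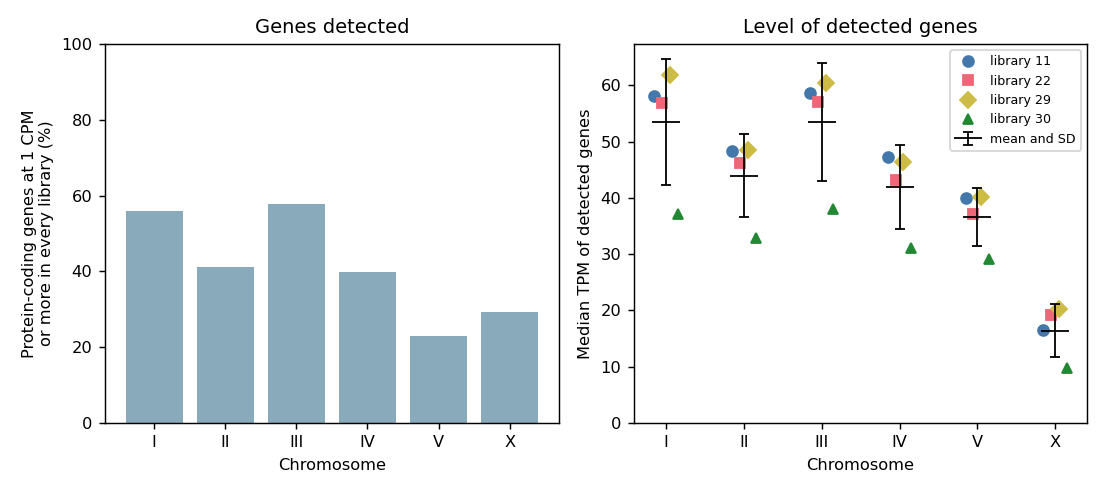
Percent of protein-coding genes at 1 CPM or more in every mutant library, by chromosome (left, bars from 0), and median TPM of those genes in each library (right, coloured points, with the mean and SD over 4 libraries in black). Chromosomes I and III have the highest percentages, 55.8% and 57.7%, and X has the lowest median level in each library.

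The maternal programme was present at high level in every library. All 32 listed maternal fate determinants, RNA-binding and signalling proteins that set up the first cell identities, were at 1 CPM or more in each library. They summed to 17989, 21031, 20291 and 16351 CPM in libraries 11, 22, 29 and 30. After pos-1 the highest per length were spn-4 at 1854 ± 642 TPM and mex-5 at 1562 ± 493 TPM. The RNA-binding gene mex-6 was among the steadiest of the list, with 1275, 1364, 1319 and 1248 CPM. The Notch receptor gene glp-1 was less even, at 590, 623, 603 and 206 CPM, and library 30 was the low one.

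Genes of the first divisions were detected in the same way. All 27 genes of zygote polarity and spindle positioning were at 1 CPM or more in every library, led per length by par-5 (a 14-3-3 protein) at 1163 ± 85.9 TPM. The non-muscle myosin gene nmy-2, needed for cortical flow, had 516, 638, 632 and 155 CPM, again with library 30 low. All 34 matched DNA replication genes and 30 of 31 mitotic genes reached 1 CPM in every library, summing to 20406 ± 1116 CPM and 13352 ± 872 CPM (SD, n = 4). The sliding clamp gene pcn-1 averaged 2187 ± 596 TPM and the B-type cyclin gene cyb-1 1241 ± 301 TPM. All 33 proteasome genes were detected in every library and summed to 19142 ± 2683 CPM.

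Lists for protein synthesis, energy supply and the cytoskeleton had high sums. The 33 translation factors summed to 27152, 28769, 25064 and 40019 CPM in libraries 11, 22, 29 and 30, with eef-1B.1, another elongation factor subunit, at 2371 ± 953 TPM behind eef-1A.1. Its member iff-1, an initiation factor of the eIF5A family, had the largest spread between libraries, with 991, 444, 405 and 2312 CPM. The 37 nuclear respiratory chain and ATP synthase genes summed to 22643 ± 5682 CPM (SD, n = 4), and library 30 was the high one in both lists. The 16 tubulin and actin genes summed to 22016 ± 2546 CPM, with tbb-2 at 4865 ± 1205 TPM. Of the 11 with a mean of at least 5 CPM, 9 were narrow, with an SD of log2 CPM below 0.2, against 21.6% of all genes. That share was 33.3% among genes of 1000 to 2000 bases and 35.1% among genes at 1000 CPM or more. The median SD of the list was 0.18, and 0.22 after the length adjustment described further on.

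Histone, RNA processing and chromatin genes were summed in the same way. The 84 histone and related chromatin genes summed to 6803 ± 1013 CPM, and 52 of them reached 1 CPM in every library. The 37 with a mean of at least 5 CPM had a median of 35.2 TPM. A large part of the sum came from htz-1 and hmg-1.1, with means of 1327 and 1114 CPM. The histone variant H2A.Z gene htz-1 was even, with 1278, 1313, 1300 and 1417 CPM. Most replication-dependent histone genes exist as near-identical copies, whose counts are uncertain. All 40 matched spliceosome genes were at 1 CPM or more in every library and summed to 16380 ± 1219 CPM, with the SR protein gene rsp-3 at 1459 ± 205 TPM. The 32 chaperone genes summed to 13299 ± 1004 CPM, of which sip-1 held the largest part. The 35 chromatin repression genes summed to 7606 ± 1425 CPM, led per length by lin-53, a histone-binding protein, at 834 ± 188 TPM. The 38 matched small RNA pathway genes summed to 7905 ± 1317 CPM, and all of them reached 1 CPM in every library. The 22 ribosomal RNA genes summed to 23769, 37242, 23087 and 28089 CPM, with library 22 the high one.

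The 25 listed germ granule genes were all at 1 CPM or more in every library and summed to 7657 ± 613 CPM, led per length by wago-1, an Argonaute gene of the secondary small RNA pathway, with 1800, 1706, 1532 and 1540 CPM. The P granule gene pgl-1 had 478, 504, 438 and 462 CPM and its partner deps-1 349, 382, 335 and 360 CPM, and for both genes the 4 libraries lay close together. Of 20 matched eggshell and egg activation genes, 17 reached 1 CPM in every library and 1 had no count in any, and together they summed to 2668 ± 338 CPM. The chitin-binding proteoglycan genes cpg-1 and cpg-2 had 390, 364, 283 and 233 CPM and 164, 210, 182 and 122 CPM. Library 30 was the lowest for both.

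Transcripts of the embryo's own first genes were present at lower levels. Among members with a mean of at least 5 CPM their median was 27.9 TPM, against 202 TPM for the maternal fate determinants. Of 42 listed early zygotic genes, 24 reached 1 CPM in every library, and their sum of 2729 ± 374 CPM was mostly mex-5, which mothers also supply. The early marker pes-10 had 70.2, 68.0, 65.8 and 86.5 CPM, close to each other. The T-box gene tbx-9 had 47.2, 41.9, 41.8 and 69.8 CPM. The endoderm gene end-3 had 6.28, 3.61, 3.15 and 10.8 CPM and was highest in library 30. The later intestinal regulator elt-2 had 8, 6, 11 and 0 counts, near the limit of detection in all 4 libraries. Each library thus held high maternal markers, pes-10 at a moderate level and elt-2 at almost none.

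The lists of other tissues gave a different picture, and libraries 22 and 29 stood apart in it. The 32 listed adult intestine genes summed to 5.21, 1107, 996 and 18.9 CPM in libraries 11, 22, 29 and 30. At 1 CPM or more were 1, 18, 16 and 7 of them, and 10, 3, 1 and 5 were at a count of 0. The 171 cuticle collagen genes summed to 86.4, 1412, 1207 and 154 CPM, with 11, 55, 50 and 32 genes at 1 CPM or more and 76, 24, 21 and 22 at 0. Of all 46748 genes, 8595, 8730, 8841 and 8814 reached 1 CPM in libraries 11, 22, 29 and 30. At least 1 count was held by 15920, 16509, 17128 and 16293, and a count of 0 also depends on depth. In the intestine and collagen lists libraries 22 and 29 were the high ones and did not overlap with libraries 11 and 30. The labels name early embryos alone for every library, and where these transcripts came from was not tested. In bulk embryos fewer cells of a kind and less RNA per cell cannot be told apart.

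Body wall muscle genes summed to 391, 702, 640 and 397 CPM. Much of that sum came from act-4 and unc-45, which were present in every library, while 6, 22, 20 and 7 of the 24 genes reached 1 CPM. Neuronal genes summed to 246, 273, 279 and 362 CPM, of which the synaptobrevin gene snb-1 alone gave 209.1, 234, 238 and 341 CPM, and 9, 10, 10 and 6 of the 30 genes reached 1 CPM. Somatic gonad and uterus genes summed to 137, 196, 194 and 82.7 CPM. Sperm genes summed to 218, 177, 159 and 586 CPM, with library 30 the high one.

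**Figure D3:**
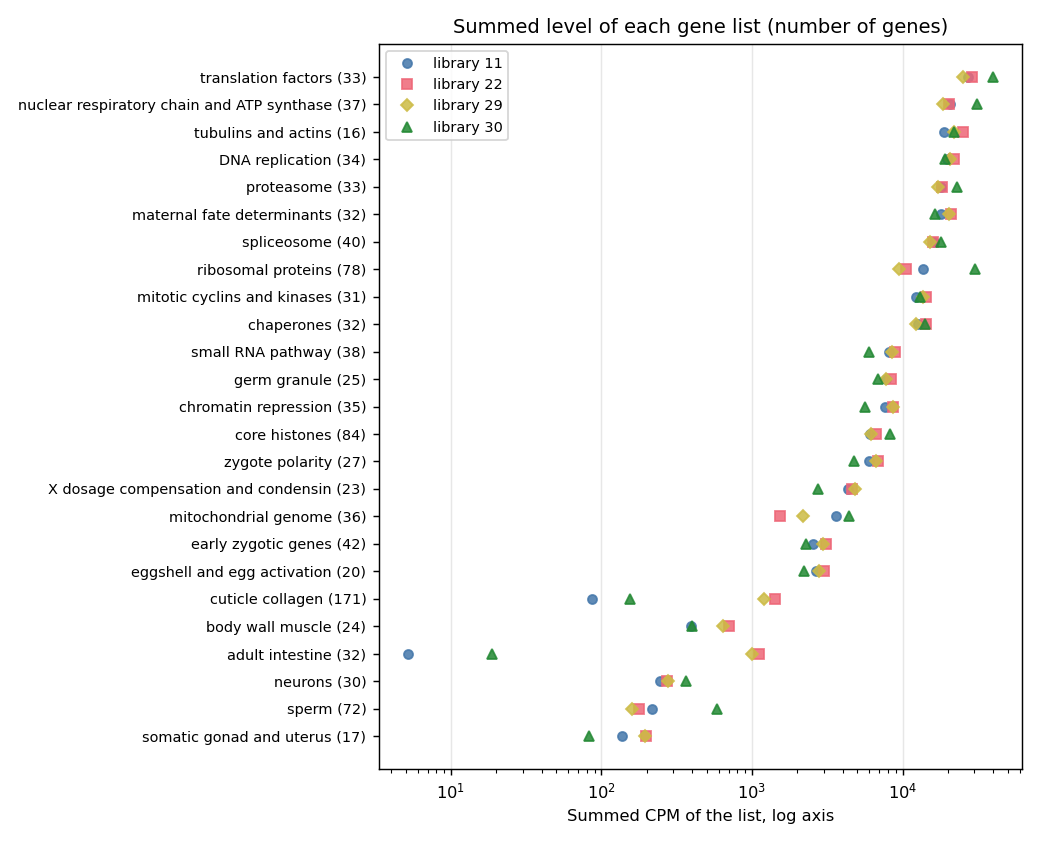
Summed CPM of each gene list in each mutant library, on a log axis, with the number of genes of the list in brackets and ribosomal RNA left out. Most lists lie within a narrow range, while adult intestine runs from 5.21 to 1107 CPM and cuticle collagen from 86.4 to 1412 CPM, with libraries 22 and 29 high in both.

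Spread between the mutant libraries was measured for each gene as the SD over the 4 libraries of log2(CPM + 0.5), and is given on that log2 scale. Among the 6767 genes with a mean of at least 5 CPM its median was 0.38, with an interquartile range of 0.22 to 0.63. A gene was called wide above 1 and narrow below 0.2. By that rule 413 genes were wide (6.1%) and 1465 were narrow (21.6%). The number of wide genes rested on which libraries were present, since it was 89 without library 30 and 785 without library 11, and 427 with libraries 22 and 29 both left out. The number of narrow genes was 3641 and the median spread 0.18 without library 30. The genes next to the limits were nspd-3 (1.00, just inside the ordinary range) and F10E9.7 (1.00, just wide), and pid-2 (0.20, just narrow) and rpn-9 (0.20, just above).

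Counting error was small beside the median spread, though not beside the smallest spreads. At 5 CPM library 11 holds 171 counts, and its exact 95% interval is 4.28 to 5.81 CPM, while at 1000 CPM the interval is 989 to 1011 CPM. Wide genes were more frequent at low level, with 10.2% of genes at 5 to 10 CPM and 3.60% of genes at 1000 CPM or more.

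**Figure D4:**
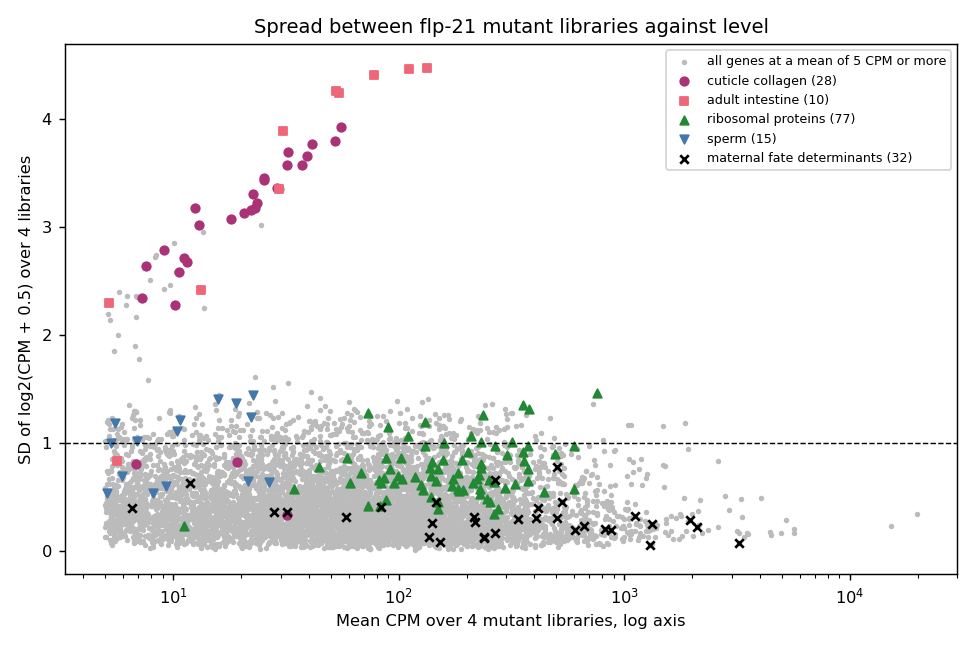
SD of log2(CPM + 0.5) over the 4 mutant libraries against mean CPM (log axis) for the 6767 genes with a mean of at least 5 CPM, in grey, with 5 lists in colour and the number of their genes in brackets. The dashed line is the limit of 1 for a wide gene; the vitellogenin and collagen genes lie far above the other genes, up to 4.47.

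The widest genes of all were the vitellogenins and the cuticle collagens. The 15 with the largest spread were the 6 vitellogenin genes and 9 collagen genes, with spreads of 3.43 to 4.47. The yolk protein gene vit-6 (chromosome IV, 8261145 to 8266463) had 6, 10064, 13522 and 116 counts in libraries 11, 22, 29 and 30, which is 0.174, 284, 249 and 2.29 CPM. Its relative vit-2 (chromosome X, 5101032 to 5106173) had 3, 8348, 11188 and 85 counts, and vit-5 had 4, 5596, 8199 and 26. Libraries 22 and 29 were high in all 3, library 30 was low and library 11 was lower still. Reads that fit both vit-3 and vit-4, or other near-identical copies, could not be assigned with certainty, so the values of those single genes are uncertain.

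The collagens followed the same order of libraries. The gene col-124 had 1, 4271, 5443 and 94 counts, and col-122 had 0, 3979, 5039 and 162 counts. The adult-specific collagen col-19 had 0, 1904, 2530 and 55 counts, so that library 11 held none at this depth and library 30 a small amount. Of the 28 collagen genes with a mean of at least 5 CPM, 25 were wide, where 6.1% of all genes were. Their median spread was 3.16 against 0.38 over all genes. The exception with the highest level was dpy-10, with 38.01, 35.1, 32.6 and 22.4 CPM, which was present in every library. Most of these collagens reach that mean only through the libraries in which they are high, so the filter itself favours wide ones. With no filter on low values the collagen median was 0.30, against 0.22 over all genes. The median of the adult intestine list was 4.07 with the filter and 0.83 without it.

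The same libraries were high for further genes of the marker lists, though not for every list. The sperm list was lowest in libraries 22 and 29, at 177 and 159 CPM against 218 and 586 CPM in libraries 11 and 30. In all, 62 wide genes had their largest gap between libraries 22 and 29 above and 11 and 30 below, of which 41 were on one of the marker lists and 25 were collagens. Among all 6767 genes, 28 were collagens, 15 sperm, 10 adult intestine, 9 body wall muscle, 6 somatic gonad and 3 neuronal markers. The marker genes of this pattern reach the mean of 5 CPM mainly through libraries 22 and 29, which also define it. The myosin heavy chain gene unc-54 of body wall muscle had 0.55, 50.6, 45.3 and 1.14 CPM, and the paramyosin gene unc-15 had 0.289, 19.4, 20.7 and 0.611 CPM. The aspartic protease gene asp-1 of the intestine had 0.0289, 66.5, 49.4 and 2.50 CPM. The basement membrane collagen gene let-2 had 0.0289, 16.6, 16.37 and 0.315 CPM, and the intestinal actin gene act-5 had 0.261, 13.2, 12.98 and 0.946 CPM. In contrast, act-4, unc-45 and deb-1 had spreads of 0.28, 0.16 and 0.13, and their libraries lay close together. None of the 32 maternal fate determinants was wide, a count near the 6.1% of all genes.

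A second pattern followed the length of the gene. Of the 413 wide genes, 178 had libraries 11 and 30 above 22 and 29, with a median exon length of 528 bases, and 113 had library 30 alone above the rest, with a median of 489 bases. Another 50 had library 30 below the other 3, with a median exon length of 5336.5 bases. Among all 309 genes under 500 bases, 46.6% were wide, and the median deviation from the mean of the 4 libraries was 0.29, -0.76, -0.75 and 1.19 in libraries 11, 22, 29 and 30. Among the 50 genes of 8000 bases or more, 11 were wide and the deviations were 0.20, 0.47, 0.49 and -1.13. Genes of 1000 to 2000 bases were wide in 1.62% of cases. Across the 6767 genes, which are not independent replicates, the correlation of log2 length with the deviation was -0.10, 0.63, 0.63 and -0.74.

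**Figure D5:**
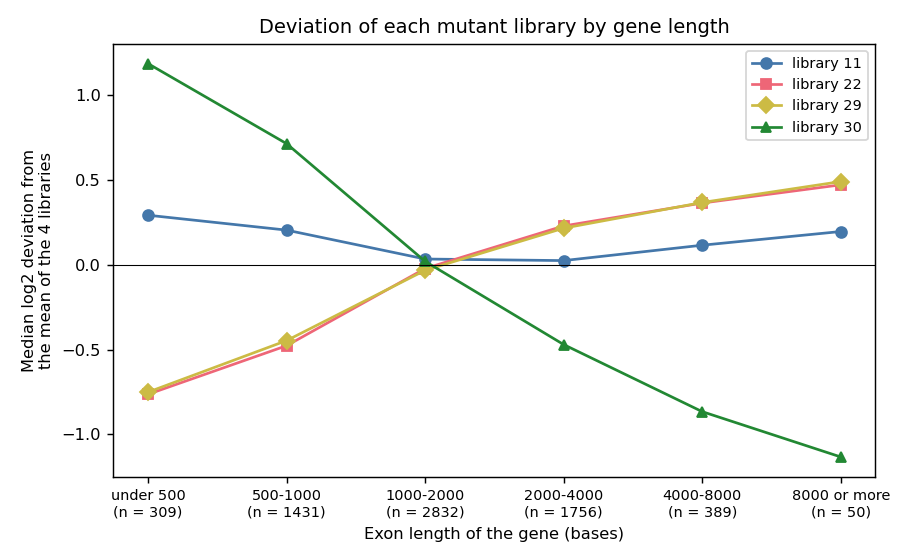
Median log2 deviation of each mutant library from the mean of the 4, in 6 bins of exon length with the number of genes in each. Library 30 runs from 1.19 in genes under 500 bases to -1.13 in genes of 8000 bases or more, while libraries 22 and 29 run the other way and library 11 stays between 0.02 and 0.29.

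Single genes at both ends of the length range had these values. The short ribosomal protein gene rpl-41.2 (293 bases) had 667, 233, 229 and 1914 CPM in libraries 11, 22, 29 and 30. The spindle gene mzt-1 (440 bases), a part of the gamma-tubulin complex, had 124, 47.1, 39.3 and 329 CPM. Both were highest in library 30 and lowest in libraries 22 and 29. At the other end dpy-22 (10838 bases), which encodes a subunit of the Mediator complex, had 149, 167, 167 and 23.4 CPM, with library 30 alone low. The condensin gene mix-1 (4426 bases) had 247, 245, 257 and 59.99 CPM, and 4 of the 22 dosage compensation and condensin genes with a mean of at least 5 CPM were wide. Over all genes 6.1% were wide, and among those of 4000 to 8000 bases 8.74%.

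Over all genes 6.1% were wide and the median spread was 0.38, and the counts of the following lists stand beside these values. The 77 ribosomal protein genes with a mean of at least 5 CPM had a median length of 636 bases, summed to 13624, 10477, 9422 and 30499 CPM and had a median spread of 0.69, with 11 wide. Without library 30 that median was 0.24. The 15 sperm genes had a median length of 434 bases and a median spread of 1.02, with 8 wide, and a median of 0.58 without library 30. Both lists were close to other genes of their length. Among all genes of 500 to 1000 bases 10.9% were wide and the median spread was 0.62. Among those under 500 bases the values were 46.6% and 0.97. The proteasome, with a median length of 1235 bases, had a median spread of 0.20 and none of 33 wide, where genes of 1000 to 2000 bases were wide in 1.62% of cases. The mitochondrial genome list summed to 3629, 1538, 2198 and 4409 CPM and had 6 of 14 genes wide. Its gene COX3, a cytochrome oxidase subunit, had 1504, 328, 415 and 961 CPM.

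The spread was also taken with the length pattern removed. When the median deviation of each library in 20 bins of exon length was subtracted, a step added after the data had been seen, the number of wide genes was 101, of which 72 were among the 413, and the median spread was 0.25. None of the ribosomal protein genes and none of the sperm genes remained wide, with median spreads of 0.32 and 0.44. All 25 wide collagens and 9 of the 10 adult intestine genes with a mean of at least 5 CPM were wide after the step, with median spreads of 3.37 and 3.64. That outcome was largely set in advance. The median deviations by length ran only from -1.13 to 1.19 in library 30, which is small beside such spreads. Most of these genes also reach the mean of 5 CPM only through libraries 22 and 29. The spread of vit-6 was 4.12 after it and that of mzt-1 was 0.49. What gave rise to the length pattern, or to the high values of libraries 22 and 29, was not tested.

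On the CPM scale the steadiest transcripts kept almost the same level in all 4 libraries. Among genes with a mean of at least 50 CPM the smallest spread was that of ung-1, which encodes uracil-DNA glycosylase, with 118.5, 118.5, 116.6 and 118.6 CPM and a spread of 0.01. The SWI/SNF subunit gene swsn-6 had 191, 186, 191 and 190 CPM, and the transcription factor gene gtf-2E1 had 179, 173, 175 and 174 CPM. For these genes the libraries differed by no more than 1.03-fold. The proton pump gene vha-15, the hexokinase gene hxk-1, the phosphatase gene ppm-1.A and the Mediator gene let-49 were also among the 10 steadiest, with spreads of 0.02 to 0.03. These 10 genes were 1014 to 2145 bases long. After the length step their spreads were 0.05 to 0.26, against a median of 0.25 over all genes, so some were no longer steadier than most. Per length ung-1 was less even as well, with 163, 186, 192 and 125 TPM in libraries 11, 22, 29 and 30.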

How the data were processed

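The deposited table holds raw read counts for 46748 genes and their exon lengths in bases. The authors counted exons of WBcel235 with featureCounts 1.6.4, per the file headers, with no option for strand, and the submitters' processing notes also name BWA. BWA does not split reads over introns, and reads of overlapping or near-identical genes cannot be told apart. The table of the authors' own comparison and the wildtype columns were not used here.

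CPM were TMM-scaled (edgeR 4.0.16 in R 4.3.3), and TPM were computed from counts and exon lengths. Shares and detection limits used unscaled totals. A pseudocount of 0.5 was added on the log2 scale. With 1 group there is no test, and values are descriptions. Exact 95% Clopper-Pearson intervals and the limit of 3 counts for a count of 0 cover counting error only. The spread measure was tried on simulated counts that had no length pattern. In most genes they varied less than these libraries, whose common biological coefficient of variation was 0.40. That trial does not show how the measure behaves on these data. Symbols came from Ensembl release 115 and a table of gene names, for 43693 of the identifiers, and 8 listed symbols had no match. No count column was without a sample. Alternatives used DESeq2 1.42.0 and settings given below.

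Members and lists (26, of which 6 hold markers) were chosen with earlier results of these data known. Named genes were flp-21, npr-1 and npr-5, the 15 highest in CPM and in TPM, the 15 widest at means of 5 and of 50 CPM, the 10 narrowest, and the 2 highest of each list per length. Other list members and the neighbours of the limits were named after their values were seen.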

Additional observations from a re-analysis of the deposited data

Results flagged for a closer look

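Of 117 values tested for a library far from the other 3, 10 (8.55%) had a gap to the nearest library above the critical share of their range, and chance flags about 1 in 20 groups of independent values. These values are not independent, and some genes, dpy-22 and ung-1 among them, were named for their large or small spread, so that rate is no measure for this set. Library 30 was the one apart for 7 of the 10. It was high for npr-1, at 0, 0, 0 and 0.0985 CPM in libraries 11, 22, 29 and 30 (a gap of 1.00, resting on 5 counts), for eef-1B.1, a translation elongation factor, at 1191, 1020, 896 and 2985 CPM (0.859), for mlc-4, a myosin light chain, at 267, 277, 268 and 337 CPM (0.863), and for the sperm gene nspd-1 at 15.3, 7.66, 6.32 and 61.3 CPM (0.837). It was also high for the summed CPM of the nuclear respiratory chain and ATP synthase list, at 20595, 20443, 18491 and 31045 (0.832), and of the sperm list, at 218, 177, 159 and 586 (0.861). It was low for dpy-22, at 149, 167, 167 and 23.4 CPM (0.871).

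Library 11 was the one apart for 2 values, low for the chromatin gene hmg-1.1 at 908, 1174, 1167 and 1206 CPM (0.868) and high for the synaptic gene ric-4 at 3.24, 1.80, 1.75 and 1.99 CPM (0.839). Library 29 was apart for ung-1, at 118.5, 118.5, 116.6 and 118.6 CPM (0.907). That gap is no larger than counting error, since at 100 CPM the exact interval of library 29 is 97.3 to 102.8 CPM.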

How the results depend on the processing

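The number of wide genes, 413, was 633 with no filter on low values, 116 by the biological coefficient of variation of edgeR above 0.7 and 101 after the length step, and 89 to 785 with 1 library left out. The number of narrow genes, 1465, was 9082 with no filter, 0 by the coefficient of variation below 0.14 and 2458 after the length step, and 1333 to 3641 with 1 library left out. The median spread of 0.38 was 0.22 with no filter, and 0.18 to 0.42 with 1 library left out. The share of the top 10 genes was 5.78% and that of the top 100 genes 20.2%, against 7.30% and 21.98%, without ribosomal RNA and mitochondrial genes. The causes were not tested. Other scalings gave 355 to 399 wide genes, of which 327 to 396 were shared with TMM. The number of detected genes, 7923, was 7925 to 9952 under the alternatives. Of 338 list spreads 30 moved, and of 105 TPM values 8 moved, while 0 of 144 CPM values and 0 of 206 list sums did. The limit for calling a sum moved was wide, so this does not show that the sums are stable. The ribosomal protein sum, for one, was 16005.5 CPM with all libraries and 11380.5 CPM without library 30, and was not called moved. No paired analysis was possible because only 1 group was described and no groups were compared.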

Other observations

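Non-coding RNA took a small part of the counts of these libraries. The 7701 genes annotated as ncRNA summed to 392, 440, 496 and 483 CPM of total counts in libraries 11, 22, 29 and 30, and 34 of them reached 1 CPM in every library. The 346 snoRNA genes summed to 91.2, 106, 130 and 114 CPM. Long intergenic RNA genes (181) summed to 49.4, 39.5, 47.6 and 91.5 CPM, with library 30 the high one. The 15363 piRNA genes together held 6.01 to 8.13 CPM, and no library held more than 0.585 CPM of tRNA. Pseudogenes took 0.347 ± 0.0506% of the counts (SD, n = 4), and 142 of 2074 reached 1 CPM in every library.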
